A study of Mus musculus with 48 samples.

Results

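Notch receptors, their ligands and the Hes and Hey genes were followed in C2C12 cells, a mouse cell line of muscle precursors (myoblasts) whose cells fuse into myotubes on differentiation. The genes were chosen by name, as 10 of the 47480 gene symbols in the count tables, and all 10 passed the filter on low counts in every comparison. They are the receptors Notch1, Notch2 and Notch3, the ligands Jag1 and Dll1, the transcriptional repressors Hes1, Hey1 and Heyl, the feedback regulator Nrarp, and Hes6, a relative of Hes1.

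Notch signalling runs between neighbouring cells. A ligand on one cell binds a receptor on the next, the receptor is cut, and its intracellular domain enters the nucleus, where it joins the DNA-binding protein RBPJ and switches on targets such as Hes1, Hey1, Heyl and Nrarp. In muscle, active Notch keeps progenitor cells undifferentiated and holds back myogenic factors, and it is best known there for maintaining the satellite cells that repair the tissue.

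Cells were grown on flexible, collagen-coated plates and stretched cyclically and equally in all directions with the Flexcell system, while non-stretched cells were kept on the same kind of plate. RNA was sequenced from 48 libraries in 12 groups of 4: cells stretched for 1, 3 or 6 h, each time with its own non-stretched control, in myoblasts (labelled UD) and in differentiated cells (labelled D). All groups are the same cell line with no genetic change, so the cells model muscle in culture without nerve, vessel or whole fibre. The 4 libraries of a myoblast group came as pairs from the experiments coded B27 and B31, and those of a differentiated group from B25 and B28, except that the differentiated cells stretched for 1 h held 1 library of experiment B17 (replicate 4) and 1 of B28. A library of stretched myoblasts at 1 h bears the code B231 in its label and was taken as B31. Since pairs shared an experiment, p-values measure the spread between these libraries, part of which may be technical.

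Libraries held 48447318 to 77080730 counts, and the 10 genes between 22 counts (Heyl in a stretched myoblast library) and 22461 counts (Notch2) in a library. The stages were taken from the labels, and their markers differed. Myog, the transcription factor myogenin, stood at 1.21 CPM (counts scaled to library size, with TMM factors over all 48 libraries) on average in the 24 myoblast libraries and at 862 CPM in the 24 libraries of differentiated cells. The summed level of 4 genes of dividing cells (Mki67, Top2a, Ccnb1 and Cdk1) ranged from 1375 to 1744 CPM in myoblasts and from 199 to 584 CPM in differentiated cells. Of the other cell types checked, fat markers (Adipoq and Plin1) summed to at most 0.0361 CPM and endothelial markers (Pecam1, Cdh5 and Kdr) to at most 0.792 CPM, and blood markers (Ptprc, Adgre1 and Cd68) to at most 1.37 CPM. The macrophage marker Adgre1 was at 0 in every library, while Cd68, which macrophages express highly, had 19 to 90 counts. In bulk RNA, a smaller number of cells of a type and less RNA per cell cannot be told apart.

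On the GRCm38 assembly (mm10), GENCODE vM21 places Notch1 at chr2:26457903-26516663, Notch2 at chr3:98013527-98150361 and Notch3 at chr17:32120820-32166852. The ligand Jag1 lies at chr2:137081456-137116644 and Dll1 at chr17:15367354-15376872. The repressors lie at chr16:30064384-30067796 (Hes1), chr3:8663359-8667256 (Hey1) and chr4:123233556-123249875 (Heyl), Nrarp at chr2:25180758-25183339 and Hes6 at chr1:91411483-91414038. The authors' counts came from Salmon, and gene lengths were taken here over all exons of a gene in GENCODE vM21, UTRs included. Other genes held 4.28% of the 31-base stretches of Notch2 (Gm42820, on the same strand) and 1.35% of those of Notch3 (Gm30232), so a small part of these counts depended on how shared reads were divided, and for the other 8 genes the share was 0.

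RefSeq promoters (GRCm38.p6) were found for 7 of the 10 genes, all but Hes1, Hey1 and Heyl. The 250 bases before the RefSeq start of 4 of them are shown 5′ to 3′ on the strand of the gene. These 4 were chosen because in stretched myoblasts Notch3 and Nrarp were both lower at 3 h, and Jag1 and Dll1 both higher at 6 h. Capitals mark every match, on either strand, to the letters TGGGAA (the core bound by RBPJ), CACGTG and CACNAG (boxes that Hes and Hey proteins can bind) and CAGCTG (an E-box of myogenic factors). The windows are Notch3 at chr17:32166891-32167140 (minus strand), Nrarp at chr2:25180508-25180757 (plus strand), Jag1 at chr2:137116521-137116770 (minus strand) and, for Dll1, the upstream of its starts at chr17:15376933-15377182 (minus strand). The RefSeq start of Jag1 lies inside the gene as GENCODE places it, so part of its window, with the marked CAGCTG, lies within the gene.
Notch3: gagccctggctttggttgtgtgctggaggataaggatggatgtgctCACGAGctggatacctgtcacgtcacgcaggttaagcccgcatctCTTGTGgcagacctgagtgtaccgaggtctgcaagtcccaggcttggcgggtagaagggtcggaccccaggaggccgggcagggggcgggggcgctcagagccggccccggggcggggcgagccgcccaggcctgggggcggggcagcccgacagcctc
Nrarp: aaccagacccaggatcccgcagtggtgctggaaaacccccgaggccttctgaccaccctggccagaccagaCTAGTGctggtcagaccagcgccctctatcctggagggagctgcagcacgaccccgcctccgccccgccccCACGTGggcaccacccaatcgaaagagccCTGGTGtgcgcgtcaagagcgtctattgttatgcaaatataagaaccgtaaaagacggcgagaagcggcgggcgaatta
Jag1: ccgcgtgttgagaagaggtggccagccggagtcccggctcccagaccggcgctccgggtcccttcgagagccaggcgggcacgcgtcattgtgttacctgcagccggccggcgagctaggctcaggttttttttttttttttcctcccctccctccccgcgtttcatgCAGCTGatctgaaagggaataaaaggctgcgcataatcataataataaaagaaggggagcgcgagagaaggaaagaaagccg
Dll1: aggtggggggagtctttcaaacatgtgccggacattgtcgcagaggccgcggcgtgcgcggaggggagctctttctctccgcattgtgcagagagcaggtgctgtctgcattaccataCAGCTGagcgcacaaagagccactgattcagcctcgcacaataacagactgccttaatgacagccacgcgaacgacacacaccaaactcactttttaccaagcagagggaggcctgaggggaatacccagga
Notch3 and Nrarp each held CACNAG at 2 places, and Nrarp also held CACGTG. Jag1 and Dll1 each held CAGCTG once. A link between these letters and the stretch effects by which the 4 genes were chosen was not tested. Of the genes not shown, Notch1 and Notch2 held CACNAG as well, and Hes6 held both CAGCTG and CACNAG. The other window of Dll1, at chr17:15375824-15376073, held no match. These letters were common: of 32851 promoter windows of this length, 36.7% held CACNAG, 6.02% CACGTG, 13.0% CAGCTG and 21.6% TGGGAA. The letters TGGGAA were in none of the windows of the 7 genes, which says only that these letters are absent from this stretch.

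Without stretching, the order of the 10 genes differed between the stages. Levels between genes were compared per length, as CPM per kb of merged exons, over the 12 non-stretched libraries of a stage. Merged exons take in every annotated form of a gene, so close ranks also depend on the annotation. In myoblasts Notch2 led at 23.0 ± 2.41 CPM per kb (mean ± SD), followed by Hes1 at 17.1 ± 1.65 and Hes6 at 16.8 ± 0.803, which overlapped. Notch1 (7.97 ± 0.832) and Notch3 (6.69 ± 0.923) overlapped as well, Hey1 stood at 2.52 ± 0.37, and Jag1 (1.00 ± 0.0866) and Nrarp (0.994 ± 0.0804) overlapped. Heyl (0.267 ± 0.12) and Dll1 (0.254 ± 0.0361) were the lowest and overlapped. In differentiated cells Hes6 led at 111 ± 4.59 CPM per kb, above Hes1 at 25.9 ± 1.23, while Notch3 (22.9 ± 1.41) and Notch2 (21.5 ± 3.35) overlapped. The ranges of Hes1 and Notch2 overlapped as well, at 24.9 to 29.2 and 16.1 to 26.7 CPM per kb. Heyl reached 9.54 ± 0.749 CPM per kb there and overlapped with Notch1 at 8.15 ± 0.909, Dll1 reached 4.47 ± 0.439, Hey1 3.44 ± 0.217, Jag1 1.31 ± 0.146 and Nrarp 0.787 ± 0.0781. Heyl was thus ninth of the 10 in myoblasts and the fifth in differentiated cells, and Dll1 moved from last to the seventh place.

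**Figure D1:**
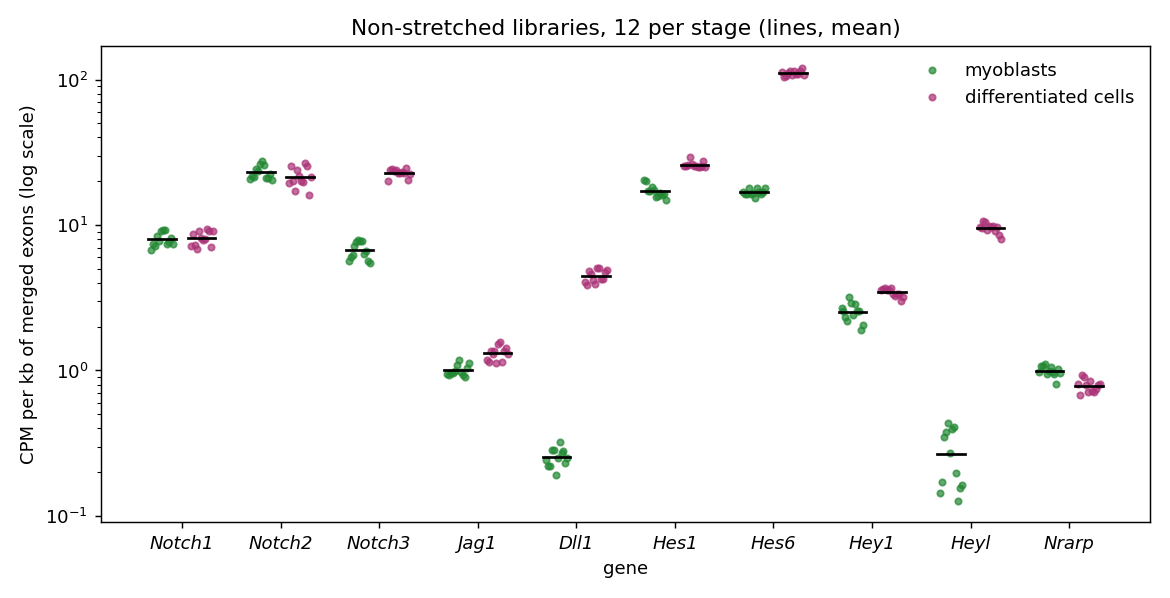
Level of each Notch gene in non-stretched cells, in CPM per kb of merged exons on a log axis. Each point is 1 of 12 libraries of a stage (green, myoblasts; purple, differentiated cells) and the line is their mean. Heyl, Dll1, Hes6, Notch3 and, by less, Hes1 separate by stage, whereas the Notch1 and Notch2 points of the stages lie at the same height.

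Between the stages, 4 of the 10 genes were higher in non-stretched differentiated cells past both limits used in the study, an adjusted p under 0.05 with a log2 fold change of 0.58 or more, where 27.1% of 16582 genes tested were, and 0 were lower (24.9%). These were, in the quasi-likelihood test of edgeR (Benjamini-Hochberg adjusted), Heyl (log2 difference 5.17 ± 0.111 SE, adjusted p = 5.53e-25), Dll1 (4.11 ± 0.0685, adjusted p = 2.08e-27), Hes6 (2.69 ± 0.0267, adjusted p = 2.68e-32) and Notch3 (1.75 ± 0.0497, adjusted p = 3.09e-22). Smaller differences passed the adjusted p alone, with Hes1 at 0.57, Hey1 at 0.42 and Jag1 at 0.36 higher and Nrarp at -0.36 lower in differentiated cells (edgeR adjusted p = 6.40e-07 or smaller). Over all genes 45.0% were higher and 44.4% lower at that limit. The receptors Notch1 (log2 difference 0.00 ± 0.051 SE, adjusted p = 0.943) and Notch2 (-0.12 ± 0.0697, adjusted p = 0.099) did not pass. Myoblasts and differentiated cells came from different experiments and were plated at different densities, so stage, experiment and density cannot be told apart here.

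In stretched myoblasts Notch3 was lower at 1, 3 and 6 h, Heyl at 1 and 3 h, Nrarp at 3 h and Hes1 at 6 h, while the ligands Jag1 and Dll1 were higher at 6 h. In stretched differentiated cells Heyl was higher and Nrarp lower at 3 h, and Hes1 and Notch3 were lower at 6 h. Heyl in myoblasts at 1 h and 3 h was the only one of the 10 genes past both limits in any of the 6 comparisons of stretched with non-stretched cells.

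**Figure D2:**
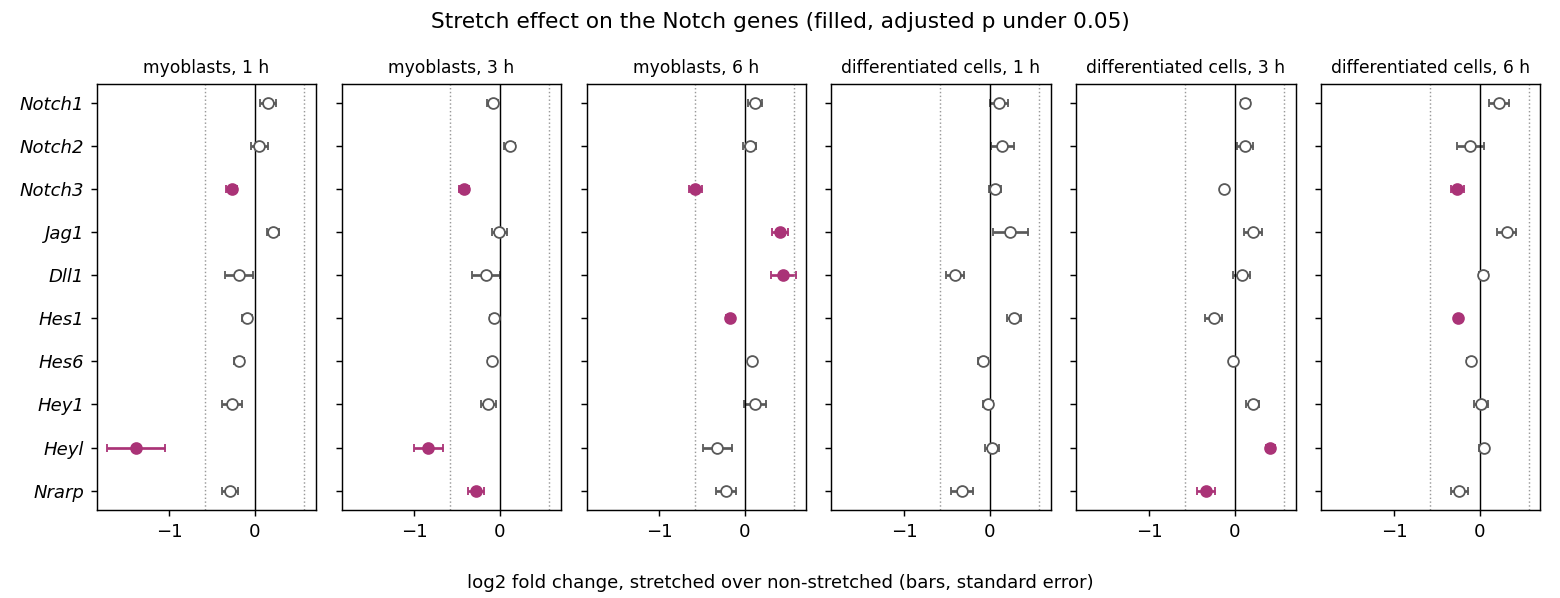
Log2 fold change of stretched over non-stretched cells for each Notch gene, with its standard error, in the 6 comparisons of 4 with 4 libraries. Filled points passed an adjusted p under 0.05 and dotted lines mark a log2 fold change of 0.58 in either direction. Heyl lies beyond the lower dotted line in myoblasts at 1 h (-1.39) and 3 h (-0.83), and Notch3 moves left from 1 h (-0.27) to 6 h (-0.58).

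In myoblasts at 1 h, 2 of the 10 genes were lower at an adjusted p under 0.05 (4.24% of 14938 genes tested) and 0 were higher (1.67%), and 1 was lower past both limits (0.997%). At 3 h, 3 were lower (15.8% of 14813 genes) and 0 higher (16%), with 1 lower (1.25%) and 0 higher (0.459%) past both limits. At 6 h, 2 were lower (13.0% of 14938 genes) and 2 higher (14.1%), and 0 passed both limits (0.823% lower and 1.35% higher). The 10 genes had median log2 fold changes of -0.18, -0.11 and 0.07 at 1, 3 and 6 h, against medians of all genes between -0.01 and 0.00.

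Of the receptors, Notch3 was the one that changed in myoblasts. At 1 h its level was 45.7, 48.9, 50.1 and 58.1 CPM in the non-stretched libraries and 41.6, 43.5, 42.9 and 40.2 CPM in the stretched ones. The stretched libraries all lay below the non-stretched ones, as for 8.01% of all genes. Notch3 fell by 0.27 on the log2 scale (SE 0.0639, edgeR adjusted p = 0.0297). At 3 h the non-stretched libraries held 62, 63.7, 62.9 and 63.1 CPM, close to each other, and the stretched ones 51.5, 51.8, 46.2 and 39.9 CPM. The groups were again apart, as for 15.4% of all genes with stretched cells lower. The log2 fold change was -0.42 (SE 0.0611, edgeR adjusted p = 2.29e-04). At 6 h Notch3 stood at 51.3, 53.2, 45.7 and 44.6 CPM without stretching and at 35.6, 34.5, 27.9 and 31.1 CPM with it. The log2 fold change of -0.58 (SE 0.0786, edgeR adjusted p = 5.09e-04) was just short of the limit on the fold before rounding. Within experiment B27 the log2 differences of the means were -0.15, -0.28 and -0.58 at 1, 3 and 6 h, and within B31 -0.38, -0.55 and -0.62, so both experiments gave a lower level at each time. The call at 1 h was lost without any 1 of 4 libraries (non-stretched replicate 9, stretched replicates 7, 9 and 10), with an adjusted p of up to 0.114, and those at 3 h and 6 h were kept without each library in turn.

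The receptors Notch1 and Notch2 did not pass at any time in myoblasts. Notch1 ranged from 96.6 to 131 CPM in the 12 non-stretched libraries and from 98.9 to 143 CPM in the stretched ones, and Notch2 from 219 to 295 and from 207 to 326 CPM. Their log2 fold changes lay between -0.08 and 0.15, with edgeR adjusted p-values from 0.198 to 0.826, and their groups overlapped at all times.

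The ligand Jag1 was higher in stretched myoblasts at 6 h. Non-stretched libraries held 5.44, 5.23, 6.03 and 6.52 CPM and stretched ones 8.26, 6.63, 8.51 and 7.12 CPM. All stretched libraries were above the highest non-stretched one, and Jag1 rose by 0.41 (log2, SE 0.0972, edgeR adjusted p = 0.00913), by 0.47 within B27 and 0.31 within B31. At 1 h the groups did not overlap either, at 5.44 to 5.64 CPM without and 5.93 to 7.12 CPM with stretching, but the log2 difference of 0.22 did not pass (adjusted p = 0.108), and at 3 h the groups overlapped, with a log2 difference of -0.0037 ± 0.0918 (SE). Groups that did not overlap with stretched cells higher were found for 5.58% of all genes at 1 h and for 15.0% at 6 h.

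Dll1, a ligand of the Delta family, was scarce in myoblasts, at 36 to 118 counts in a library. At 6 h it stood at 1.15, 1.18, 0.977 and 1.05 CPM without stretching and at 1.27, 1.4, 1.83 and 1.38 CPM with it. Every stretched library lay above the non-stretched ones, as for 15.0% of all genes. The rise of 0.45 (log2, SE 0.144) had an edgeR adjusted p of 0.0370, and it was larger within B31 (0.65) than within B27 (0.19). The call was lost without any 1 of 5 libraries (all 4 non-stretched ones and stretched replicate 9), with adjusted p-values up to 0.11, and with the replicate block (0.0695). At 1 h and 3 h Dll1 had log2 differences of -0.18 and -0.17 and overlapping groups (edgeR adjusted p = 0.618 and 0.486).

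Among the target genes, Heyl had the largest log2 fold changes in myoblasts, from low levels. At 1 h non-stretched libraries held 0.73, 0.869, 1.79 and 1.93 CPM, where the first pair was experiment B27 and the second B31, and stretched libraries 0.635, 0.385, 0.373 and 0.648 CPM. Stretched libraries were all lower, as for 8.01% of all genes, but the non-stretched libraries of B31 also lay above those of B27. The log2 fold change was -1.39 (SE 0.341, edgeR adjusted p = 0.0343), with -0.69 within B27 and -1.92 within B31. It rested on 22 to 40 counts a library in stretched cells and 50 to 122 in non-stretched cells. The call was lost without any 1 of 6 libraries (non-stretched replicates 9 and 10 and each stretched library), with adjusted p-values up to 0.119.

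At 3 h Heyl stood at 2.23, 1.39, 2.03 and 2.1 CPM without stretching and at 1.06, 1.2, 0.834 and 1.27 CPM with it. No stretched library reached the lowest non-stretched one, as for 15.4% of all genes. Heyl fell by 0.83 on the log2 scale (SE 0.171, edgeR adjusted p = 0.00245), with -0.64 within B27 and -1.0 within B31, and the call was kept without each library in turn. At 6 h the levels were 1.01, 0.652, 0.794 and 0.836 CPM without and 0.579, 0.684, 0.683 and 0.667 CPM with stretching, which overlapped, and the log2 difference of -0.32 did not pass (adjusted p = 0.179). Of 7 markers of differentiated muscle tested at 3 h, 2 were lower, where 15.8% of all genes were, and 0 were higher. These were Myog, by 0.82, and Myl1, a myosin light chain, by 0.74 on the log2 scale (edgeR adjusted p = 0.0167 and 0.0105). At 1 h, where Heyl had its larger log2 fold change, 0 of the 7 passed. Myog was just short of the limit there (log2 difference -1.25, edgeR adjusted p = 0.0501). The summed level of the 9 markers in the tables was 12.3 to 19.5 CPM in non-stretched and 10.8 to 13.7 CPM in stretched myoblasts at 3 h, and 11.7 to 21.1 against 10.5 to 12.5 CPM at 1 h. These ranges overlapped at both times. The part of these markers in the change of Heyl was not tested. The 3 genes whose log2 CPM followed Heyl most closely over the 24 myoblast libraries, of 15684 genes, were C1qtnf3 (Pearson's r = 0.896), Scn7a (0.889) and Ogn (0.884), over libraries that share their experiment, time and stretching.

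Hes1, a repressor that Notch induces within hours and that is known to oscillate, was lower at 6 h. Its levels were 33.6, 32.5, 33.3 and 30.5 CPM without stretching and 28.7, 30.1, 27 and 28.3 CPM with it, without overlap, as for 14.4% of all genes with stretched cells lower. The fall of 0.17 on the log2 scale (SE 0.0414, edgeR adjusted p = 0.0106) was small and was kept without each library in turn, with -0.17 within B27 and -0.21 within B31. Hes1 did not pass at 1 h (log2 difference -0.09, adjusted p = 0.448) or at 3 h (-0.07, adjusted p = 0.249).

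Nrarp, a target of Notch that limits the signal in return, stood at 2.45, 2.55, 2.71 and 2.54 CPM in non-stretched and at 2.1, 2.24, 2.17 and 1.98 CPM in stretched myoblasts at 3 h. The groups were apart and Nrarp fell by 0.28 on the log2 scale (SE 0.0922, edgeR adjusted p = 0.0335). The call was lost without any 1 of 6 libraries (non-stretched replicates 8, 9 and 10, stretched replicates 7, 9 and 10), with DESeq2 (adjusted p = 0.0817), with no filter on low counts (0.0828) and with the replicate block (0.0510). At 1 h the groups were also apart, at 2.51 to 2.84 and 1.91 to 2.46 CPM, with a log2 difference of -0.29 that did not pass (adjusted p = 0.118), and at 6 h they overlapped (-0.22, adjusted p = 0.206). Groups that did not overlap with stretched cells lower were found for 8.01% of all genes at 1 h and for 15.4% at 3 h.

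Hey1, a repressor of the same family as Heyl, and Hes6, which opposes Hes1 and favours muscle differentiation, passed at no time in myoblasts in the comparison of 4 with 4 libraries. At 1 h Hey1 passed with the experiment as a covariate (edgeR adjusted p = 0.0333) and Hes6 with all 24 libraries in one model (0.0303). Hey1 ranged from 5.4 to 10.4 CPM over the 24 libraries, with log2 differences of -0.27, -0.13 and 0.12 at 1, 3 and 6 h. Hes6 lay at 29.3 to 32.3 CPM without and 22.8 to 28.8 CPM with stretching at 1 h, and at 29.7 to 32.4 and 32 to 32.7 CPM at 6 h, with log2 differences of -0.18 and 0.09 (edgeR adjusted p = 0.124 and 0.063).

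**Figure D3:**
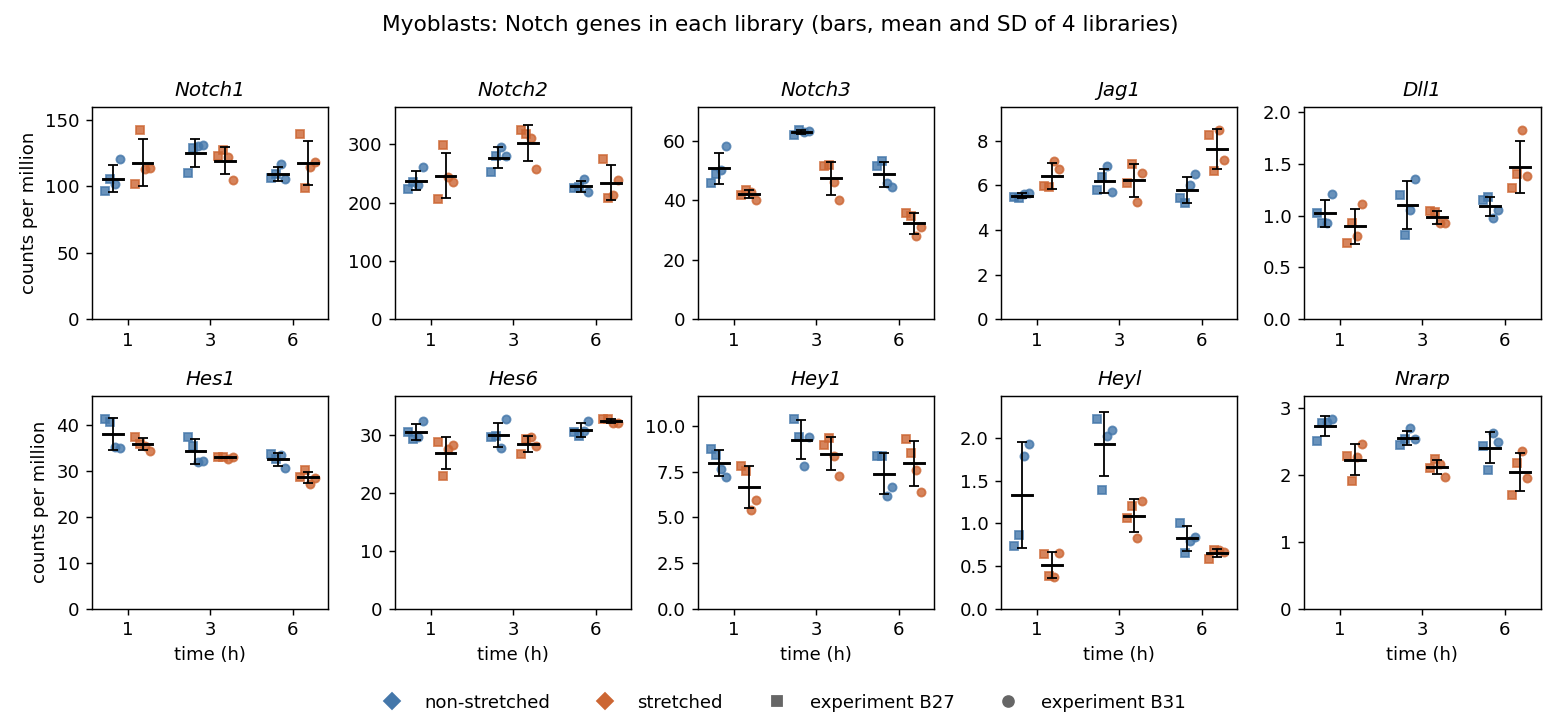
Level in CPM of each Notch gene in the 24 myoblast libraries by time, with non-stretched cells in blue and stretched cells in orange, symbols for the experiment, and black bars for the mean and SD of 4 libraries. Stretched Notch3 points lie below the non-stretched ones at every time, and the non-stretched Heyl points of 1 h split by experiment.

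Levels also moved over the hours without stretching. In non-stretched myoblasts 3 of the 10 genes differed between the time points (4.31% of 15213 genes tested): Notch3, with means of 50.7, 62.9 and 48.7 CPM at 1, 3 and 6 h (edgeR adjusted p = 0.00997), Notch2, with 237, 277 and 228 CPM (adjusted p = 0.0117), and Heyl, with 1.33, 1.94 and 0.823 CPM (adjusted p = 0.0463). All 3 had their highest mean at 3 h. In non-stretched differentiated cells 0 of the 10 differed (0.108% of 15813 genes). An unadjusted p under 0.05 was reached by 2 of them, Hey1 and Heyl, and the share of all genes at that limit was not computed.

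In differentiated cells stretched for 1 h, 0 of the 10 genes passed an adjusted p under 0.05 by edgeR, where 0.193% of 15538 genes were higher and 0.470% lower (0.0901% and 0.180% past both limits). An unadjusted p under 0.05 was reached by 3 of them (Dll1, Hes1 and Nrarp), a limit at which the share of all genes was not computed. DESeq2 called Dll1 and Hes1 (adjusted p = 0.0279 and 0.0448). Dll1 also passed in edgeR with the experiment as a covariate (adjusted p = 0.00222), the replicate block (0.0117) or all 24 libraries in one model (0.0186). Dll1 stood at 17, 16.3, 20.4 and 19.4 CPM without stretching and at 15.3, 12.4, 11.9 and 15.5 CPM with it. Every stretched library was lower, with a log2 difference of -0.41 (SE 0.107, edgeR adjusted p = 0.156). Hes1 stood at 51.8, 51.5, 53 and 59.4 CPM without and at 76, 60, 65.8 and 61.2 CPM with stretching, where every stretched library was higher, with a log2 difference of 0.29 (SE 0.0782, edgeR adjusted p = 0.183). Groups that did not overlap were found for 2.49% of all genes with stretched cells higher and for 3.90% with stretched cells lower.

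The highest Hes1 level at 1 h, 76 CPM, was in replicate 4, the single library of experiment B17, which also held the highest Jag1 (13 CPM against 6.02 to 8.37 in the other stretched libraries) and Heyl (61.6 CPM against 47.7 to 51.1). Without it the log2 differences at 1 h were 0.21 for Hes1, -0.46 for Dll1, -0.03 for Jag1 and -0.05 for Heyl, and 0 of the 10 genes passed by edgeR.

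At 3 h in differentiated cells, 1 of the 10 genes was higher (10.8% of 15513 genes) and 1 lower (11.4%) at an adjusted p under 0.05, and 0 passed both limits (0.890% higher and 0.741% lower). Heyl, the target that fell in myoblasts, rose here. It stood at 47.5, 50.6, 49.5 and 50.5 CPM without stretching and at 66.6, 71.6, 58.1 and 68.8 CPM with it. All stretched libraries were above the non-stretched ones, as for 12.6% of all genes, with a log2 fold change of 0.42 (SE 0.0565, edgeR adjusted p = 8.08e-04), 0.49 within B25 and 0.34 within B28, and the call was kept without each library in turn. Nrarp stood at 2.05, 1.84, 2.18 and 1.85 CPM without and at 1.57, 1.55, 1.68 and 1.47 CPM with stretching, which did not overlap (13.4% of all genes with stretched cells lower). It fell by 0.33 on the log2 scale (SE 0.103, edgeR adjusted p = 0.0408). This call was lost with DESeq2 (adjusted p = 0.0614), with no filter on low counts (0.0745) and without any 1 of 7 libraries (each but stretched replicate 9), with adjusted p-values up to 0.101.

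Hes1 at 3 h differed between the experiments. Non-stretched libraries held 53.2, 51.7, 51.8 and 50.8 CPM, while stretched libraries held 38.9 and 34.9 CPM in B25 and 49.7 and 51.4 CPM in B28. The log2 difference was -0.51 within B25 and -0.02 within B28, and the pooled -0.25 did not pass (edgeR adjusted p = 0.116) but did with the experiment as a covariate (0.0403). Hey1 stood at 10.6 to 12 CPM without and 11.6 to 14.2 CPM with stretching, with a log2 difference of 0.21 (edgeR adjusted p = 0.0577). Notch3 stood at 183 to 192 and 157 to 182 CPM, with -0.12 (edgeR adjusted p = 0.0703). Its groups did not overlap, as for 13.4% of all genes with stretched cells lower. Hey1 and Notch3 both passed with the experiment as a covariate, with DESeq2 and with the replicate block (adjusted p from 0.0345 to 0.0482).

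At 6 h in differentiated cells, 2 of the 10 genes were lower (10.8% of 15433 genes) and 0 higher (11.5%), and 0 passed both limits (1.52% lower and 0.518% higher). Hes1 stood at 50.9, 52, 55.7 and 51.1 CPM without stretching and at 44.7, 45, 42 and 44.9 CPM with it. The groups were apart (12.3% of all genes with stretched cells lower) and Hes1 fell by 0.25 on the log2 scale (SE 0.04, edgeR adjusted p = 0.00239), by 0.20 within B25 and 0.30 within B28, and the call was kept without each library in turn. Notch3 stood at 185, 200, 164 and 180 CPM without and at 142, 146, 179 and 144 CPM with stretching. Stretched replicate 9 lay among the non-stretched libraries and the other 3 below them. Notch3 fell by 0.26 on the log2 scale (SE 0.0781, edgeR adjusted p = 0.0379), by 0.42 within B25 and 0.10 within B28, and the call was lost without any 1 of 6 libraries (non-stretched replicates 7, 8 and 10 and stretched replicates 7, 8 and 10), with adjusted p-values up to 0.108, and with the replicate block (0.0846).

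The ligand Jag1 stood at 6.64 to 8.32 CPM in non-stretched and 8.45 to 11.9 CPM in stretched differentiated cells at 6 h, which did not overlap (13.8% of all genes with stretched cells higher), with a log2 difference of 0.32 (SE 0.112, edgeR adjusted p = 0.0626). Jag1 passed there with DESeq2 (adjusted p = 0.0265), with the replicate block (0.0338) and with the experiment as a covariate (0.0359). Dll1 held 17.9 to 20.6 CPM without and 19.5 to 20 CPM with stretching, a log2 difference of 0.04. Notch1 and Notch2 passed at no time in differentiated cells, with log2 differences between -0.11 and 0.23, and neither did Hes6, between -0.10 and -0.02. The 10 genes had median log2 fold changes of 0.05, 0.10 and -0.04 at 1, 3 and 6 h, against medians of all genes that rounded to 0.00.

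**Figure D4:**
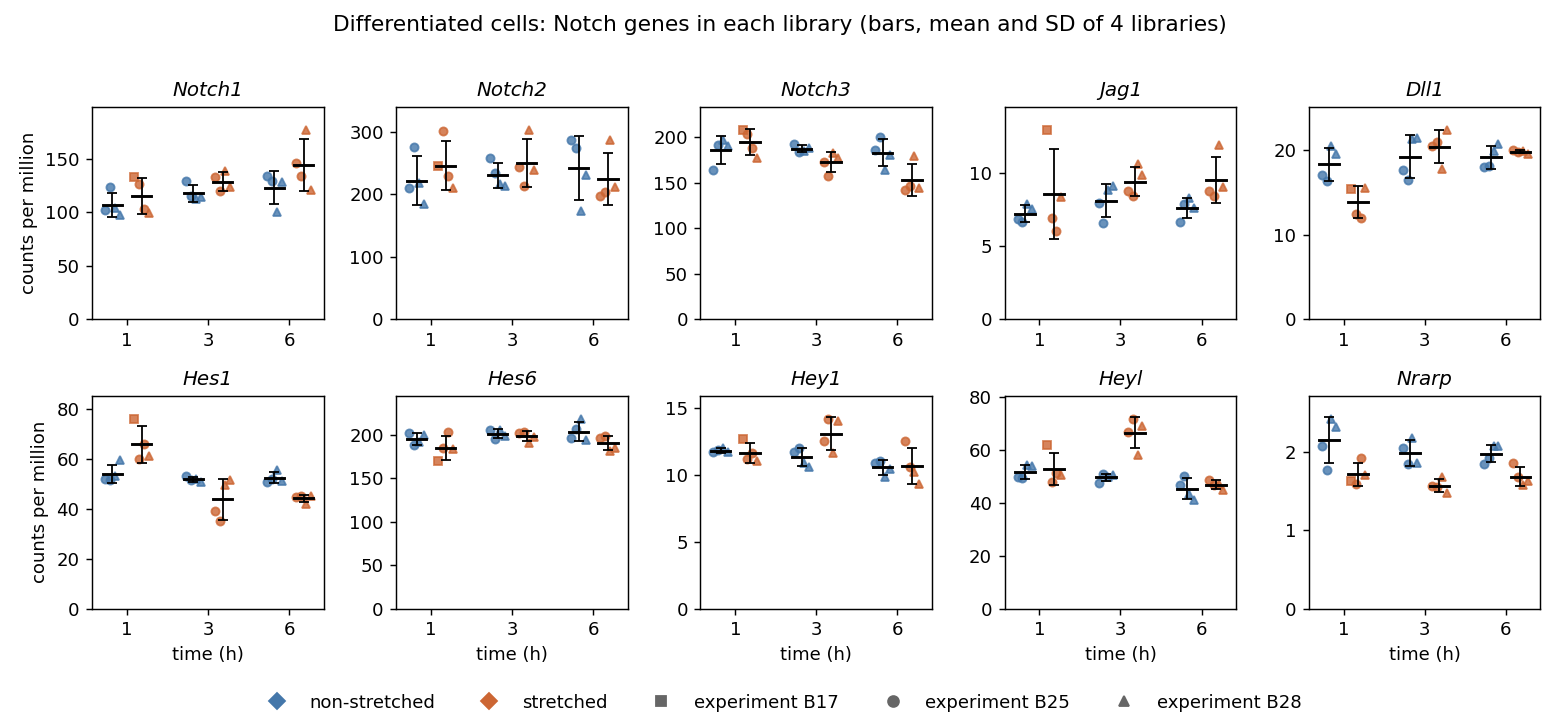
Level in CPM of each Notch gene in the 24 libraries of differentiated cells by time, with non-stretched cells in blue and stretched cells in orange, symbols for the experiment, and black bars for the mean and SD of 4 libraries. Stretched Heyl points lie above the non-stretched ones at 3 h, stretched Hes1 points lie below at 6 h, and the single library of experiment B17 at 1 h is the highest for Jag1 and Hes1.

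The stretch effects were then compared between time points of a stage with interaction terms, in which 2 contrasts of a stage share the libraries of a time point. In myoblasts 2 of the 10 genes differed between 6 h and 1 h (11.6% of 15684 genes higher and 9.42% lower), Hes6 by 0.27 ± 0.0764 (log2, SE, edgeR adjusted p = 0.0121) and Dll1 by 0.63 ± 0.217 (adjusted p = 0.0389). Heyl and Notch3 were just short there, at 1.07 ± 0.388 and -0.31 ± 0.113 (edgeR adjusted p = 0.0508 and 0.0551). An unadjusted p under 0.05 was reached by 5 of the 10 there and by 3 between 6 h and 3 h. Shares of all genes at that limit were not computed. Between 6 h and 3 h, 2 differed (14.3% higher and 12.2% lower), Jag1 by 0.42 ± 0.131 (adjusted p = 0.0184) and Dll1 by 0.62 ± 0.217 (adjusted p = 0.0346), and between 3 h and 1 h, 0 differed (5.37% higher and 5.54% lower), none of them at an unadjusted p under 0.05 either. The effect on Dll1 was thus higher at 6 h than at either earlier time, a difference that was lost without any 1 of 7 libraries of 24 in each contrast. The stretch effect on Notch3 was not shown to differ between the times.

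In differentiated cells Hes1 had a lower stretch effect at 3 h than at 1 h (by 0.54 on the log2 scale, SE 0.125, edgeR adjusted p = 0.0121) and at 6 h than at 1 h (by 0.54, SE 0.125, adjusted p = 0.00703). The model held no term for the experiment. Within B25 the Hes1 effect was 0.28 at 1 h, -0.51 at 3 h and -0.20 at 6 h. Within B28, with 1 stretched library at 1 h, it was 0.12, -0.02 and -0.30. Dll1 had a higher effect at 3 h (0.49 ± 0.137, adjusted p = 0.0383) and at 6 h (0.45 ± 0.138, adjusted p = 0.0347) than at 1 h. The effect on Heyl was higher at 3 h than at 1 h (0.39 ± 0.0994, adjusted p = 0.0223) and lower at 6 h than at 3 h (-0.37 ± 0.0998, adjusted p = 0.0161), and that on Notch3 was lower at 6 h than at 1 h (-0.33 ± 0.104, adjusted p = 0.0441). Of all 16266 genes, 2.72% were higher and 2.43% lower at 3 h than at 1 h. The shares were 6.73% and 5.13% for 6 h against 1 h, and 6.95% and 5.05% for 6 h against 3 h.

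Between the stages, the stretch effect on Heyl at 3 h differed by 1.24 ± 0.175 on the log2 scale (SE, edgeR adjusted p = 0.00123), being higher in differentiated cells, and was the only one of the 10 to pass (1.13% of 16252 genes higher and 0.658% lower). The result was kept without each of the 16 libraries in turn. At 1 h, 0 of the 10 and 0 of all 16299 genes passed (0.00%), though 3 of the 10 (Heyl, Hes1 and Notch3) had an unadjusted p under 0.05, and at 6 h 0 of the 10 passed (2.39% of genes higher and 2.79% lower), with 4 at an unadjusted p under 0.05. Shares of all genes at the unadjusted limit were not computed. DESeq2 called 0 of the 10 at 1 h and at 6 h. The stage difference in these effects cannot be told apart from a difference between the experiments.

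A wider list of 53 genes of the pathway, from ligands to corepressors, was read beside the 10, of which 42 to 44 had counts enough to be tested in a comparison. In myoblasts 1 was lower and 0 higher at 1 h, 7 lower and 9 higher at 3 h, and 8 lower and 5 higher at 6 h at an adjusted p under 0.05, where 4.24% of all genes were lower and 1.67% higher at 1 h, 15.8% and 16% at 3 h, and 13.0% and 14.1% at 6 h. In differentiated cells 0 passed at 1 h (0.470% of all genes lower and 0.193% higher). An unadjusted p under 0.05 was reached there by 5, a limit at which the share of all genes was not computed. At 3 h 5 were lower and 9 higher (11.4% and 10.8% of all genes), and at 6 h 7 lower and 3 higher (10.8% and 11.5%). The median log2 fold change of the list lay between -0.03 and 0.01 in the 6 comparisons.

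The Groucho-type corepressors of the Tle family, which Hes proteins recruit, moved in both directions, and among them Tle4 had the largest log2 fold change of the list that passed. In myoblasts at 3 h Tle4 rose from 1.95 ± 0.211 to 4.06 ± 0.594 CPM (mean ± SD, log2 fold change 1.05, edgeR adjusted p = 3.48e-05), past both limits, and Tle3 from 99.1 ± 1.85 to 127 ± 2.85 CPM (0.35, adjusted p = 1.49e-06). Tle2 fell in myoblasts at 1 h (log2 fold change -0.38, adjusted p = 0.00563). At 6 h Tle1 rose in myoblasts (0.36, adjusted p = 3.03e-04) and in differentiated cells (0.38, adjusted p = 3.94e-04), and at 3 h Tle3 rose in differentiated cells as well (0.30, adjusted p = 1.98e-04).

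Lfng, a sugar transferase that tunes the affinity of Notch for its ligands, rose in myoblasts at 3 h from 27.3 ± 0.676 to 32.8 ± 0.884 CPM (0.25 on the log2 scale, edgeR adjusted p = 6.23e-05). At 6 h Numbl, a relative of the Notch inhibitor Numb, fell in both stages, by 0.44 in myoblasts and 0.30 in differentiated cells on the log2 scale (adjusted p = 4.50e-05 and 0.00116). Maml3, a coactivator of the Notch complex, fell by 0.38 and 0.34 (adjusted p = 2.61e-04 and 5.69e-04). In differentiated cells at 3 h Fbxw7, a ubiquitin ligase subunit that turns over the intracellular domain, rose by 0.36 (adjusted p = 2.94e-04) and Mib2, a ubiquitin ligase of the ligands, fell by 0.29 (adjusted p = 5.12e-04). Hey2, a target of the Hey family at 9 to 47 counts in a myoblast library at 3 h and 6 h, rose at 6 h past both limits (log2 fold change 0.93, adjusted p = 0.0232).

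Without stretching, 27 of 44 tested genes of the wider list were higher and 13 lower in differentiated cells than in myoblasts at an adjusted p under 0.05, against 45.0% and 44.4% of all genes. Those with the smallest adjusted p were Dtx4, a ubiquitin ligase of the Deltex family (log2 difference 3.52), Neurl1a, a ubiquitin ligase of the ligands (2.66), and the deacetylase Hdac1 (-1.02).

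Other markers moved with stretching beside the Notch genes, at an adjusted p under 0.05. Of all genes, 16% were higher and 15.8% lower at that limit in myoblasts at 3 h, and 14.1% and 13.0% at 6 h. In differentiated cells these shares were 10.8% and 11.4% at 3 h, and 11.5% and 10.8% at 6 h. Of 6 markers of undifferentiated or reserve cells, 3 rose in myoblasts at 3 h, when Notch3, Heyl and Nrarp fell: Id1, Id2 and Id3, inhibitors of myogenic factors (log2 fold changes 0.43, 0.45 and 0.33). Msc, the repressor musculin, fell then (-0.30), and the summed level of the 6 was 292 to 336 CPM in non-stretched and 361 to 412 CPM in stretched libraries. At 6 h in myoblasts 4 of the 6 rose, Myf5 (0.40), Msc (0.29), Id3 (0.28) and Id1 (0.21), and Pax7, the satellite cell factor, fell (-0.23), with a summed level of 274 to 307 CPM without and 291 to 355 CPM with stretching. Myog fell by 0.54 at that time, the 1 of 7 markers of differentiated muscle tested that passed. Des, a marker of the muscle lineage, was lower then as well (-0.11). At 1 h in myoblasts, when Notch3 and Heyl fell, Msc was the 1 of the 6 that passed, and it fell (-0.28). Of all genes, 4.24% were lower and 1.67% higher at 1 h. In differentiated cells at 6 h, when Hes1 and Notch3 fell, the 3 Id genes fell (-0.26, -0.29 and -0.60) and Myf5 rose (0.51), with a summed level of 100.1 to 112 CPM without and 97.7 to 102 CPM with stretching. At 3 h there, when Heyl rose, Id2 rose (0.47) and the other 5 did not pass. Of 9 markers of differentiated muscle tested in differentiated cells, 1 was lower at 6 h (Actn2, -0.34), and 0 passed at 1 h or 3 h. Of 4 markers of dividing cells, 3 rose in differentiated cells at 3 h, when Heyl rose. Their summed level with the fourth was 294 to 313 CPM without and 296 to 362 CPM with stretching, which overlapped. In myoblasts at 3 h 1 of the 4 rose (Ccnb1, 0.13) and 1 fell (Top2a, -0.09). At 6 h there 2 fell, Ccnb1 (-0.14) and Top2a (-0.13). None of the 4 passed at 1 h in either stage or at 6 h in differentiated cells. Tubb3, a tubulin listed as a neural marker that these cells express throughout, rose at 6 h in both stages (0.56 in myoblasts and 0.82 in differentiated cells) and at 3 h in differentiated cells (0.53), and Kdr, an endothelial marker below 1 CPM, rose in myoblasts at 6 h by 1.26. The part of these markers in the Notch results was not tested.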

How the data were processed

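The 48 RNA-seq libraries of C2C12 cells formed 12 groups of 4. Per the labels, the authors used STAR, Salmon and DESeq2 with the mm10 build, and they deposited, for each stage, a table of whole-number counts per gene symbol and library, without normalization. The RNA is labelled as nuclear, while the study's methods name a stranded mRNA library kit. Genes were filtered with filterByExpr, libraries scaled with TMM factors, and groups compared in R 4.3.3 with edgeR 4.0.16 (quasi-likelihood test), with Benjamini-Hochberg adjustment over all genes tested. Calls needed an adjusted p under 0.05, alone or with a log2 fold change of at least 0.58. The SE is the log2 fold change over the root of its F. Printed CPM used TMM factors over all 48 libraries. Likeness used log2 CPM with a prior count of 1. The stage test joined the raw counts of both tables, which list the same 47480 symbols. Interactions used all libraries of a stage or of a time point.

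Libraries held 48447318 to 77080730 counts, which gives the high-count receptors more precision than Heyl or Dll1 in myoblasts. Groups came from the labels. The 10 genes, the wider list of 53 and the 33 markers (32 in the tables; Mymk not analysed here) were chosen with earlier results of these data known. Genes of the wider list were named if past both limits or among the 3 smallest adjusted p under 0.05 in a comparison, and for each of the 10 past both limits the 3 genes most like it. Alternatives were DESeq2 1.42.0, RLE factors, no filter, a minimum of 10 counts per library, one fit over each stage, a block for the replicate number, a covariate for the experiment, no limit on the fold, and leaving out each library. The scripts were tested on simulated data. Columns of per-sample values left out numbered 0.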

Additional observations from a re-analysis of the deposited data

Results flagged for a closer look

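In groups of 4 libraries, a level was picked out where the gap between the most extreme library and its nearest neighbour took up more of the group's range than Dixon's limit allows, which chance alone does in about 1 of 20 groups, and 7 of 120 groups met it. Of the 7, 4 were in differentiated cells at 6 h, in separate stretched and non-stretched libraries that were both numbered 9. The stretched library held 179 CPM of Notch3 (others 142 to 146), 11.9 CPM of Jag1 (others 8.45 to 9.03) and 42 CPM of Hes1 (others 44.7 to 45). The non-stretched library held 100 CPM of Notch1 (others 129 to 134). At 3 h the non-stretched myoblast replicate 7 was lowest for Notch1, at 110 CPM (others 129 to 131). A different library, the non-stretched replicate 7 of differentiated cells at 3 h, was highest for Notch1, at 130 CPM (others 113 to 116). Heyl stood at 0.579 CPM in the stretched myoblast replicate 7 at 6 h (others 0.667 to 0.684).

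Stretch effects that differed between time points or stages by edgeR's interaction terms are listed with the libraries they depended on. In myoblasts Hes6 differed by 0.27 between 6 h and 1 h, Dll1 by 0.63, and between 6 h and 3 h Jag1 by 0.42 and Dll1 by 0.62 (log2). The Jag1 difference was lost without the stretched replicate 9 of 6 h (adjusted p = 0.0512), and each Dll1 difference without any 1 of 7 libraries. In differentiated cells Hes1 differed by -0.54 between 3 h and 1 h and by -0.54 between 6 h and 1 h, both kept without each library in turn. The Hes1 effect at 3 h was however -0.51 within B25 and -0.02 within B28. Dll1 differed by 0.49 and 0.45 in the same contrasts, lost without any 1 of 9 and of 8 libraries. Heyl differed by 0.39 between 3 h and 1 h, lost without any 1 of 6 libraries, and by -0.37 between 6 h and 3 h, kept without each. Notch3 differed by -0.33 between 6 h and 1 h and lost the call without any 1 of 18 of the 24 libraries (adjusted p up to 0.106). Between the stages, Heyl at 3 h differed by 1.24 and was kept without each library.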

How the results depend on the processing

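Of the 13 changes at an adjusted p under 0.05, 7 were kept without each library in turn (Notch3 and Heyl in myoblasts at 3 h, Notch3, Jag1 and Hes1 in myoblasts at 6 h, and in differentiated cells Heyl at 3 h and Hes1 at 6 h). Without a limit on the fold, the counts past both limits became 2 lower at 1 h, 3 lower at 3 h and 2 lower and 2 higher at 6 h in myoblasts, and 1 lower and 1 higher at 3 h and 2 lower at 6 h in differentiated cells. Replicate numbers were used as a block although libraries of a number did not deviate together (correlations from -0.0665 to 0.105, over 0.1 in 1 of 23 pairs). With the replicate block, 1 gene was higher in myoblasts at 6 h, and in differentiated cells 1 was lower at 1 h, 3 were higher and 2 lower at 3 h, and 1 was higher and 1 lower at 6 h. With DESeq2, in differentiated cells 1 was higher and 1 lower at 1 h, 2 were higher at 3 h and 1 was higher at 6 h, 4 differed between 6 h and 1 h in myoblasts, 2 differed between stages at 3 h, and 5 moved over time in non-stretched myoblasts. With the experiment as a covariate, in differentiated cells 1 was lower at 1 h, 3 were higher and 3 lower at 3 h, and 1 was higher at 6 h. With all 24 libraries in one model 1 was lower at 1 h in differentiated cells. Smaller moves were 3 in place of 2 lower in myoblasts at 1 h with the covariate (Hey1) or all 24 libraries (Hes6), and 2 in place of 3 at 3 h with DESeq2, no filter or the block (Nrarp). With no filter on low counts 0 were lower at 3 h in differentiated cells, 1 differed between 6 h and 3 h in myoblasts, and 5 moved over time in non-stretched myoblasts. At least 10 counts in every library, tried for the 6 stretch comparisons, moved no count. RLE factors moved 1, the genes higher past both limits between the stages, from 4 to 5, as did DESeq2 and no filter. Shares of all genes at an adjusted p under 0.05 were not computed for these alternatives or without single libraries. The counts under them therefore cannot be set against all genes. The causes were not tested.

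Leaving out single libraries gave, in myoblasts, 0 to 2 lower genes at 1 h (0 to 1 past both limits), 0 to 1 higher at 3 h, and 1 to 3 higher at 6 h (0 to 1 lower past both limits). In differentiated cells it gave 1 to 2 higher and 0 to 2 lower at 3 h and 1 to 2 lower at 6 h. It gave 1 to 2 lower between the stages, 1 to 3 and 0 to 3 for the effects at 6 h minus 1 h and minus 3 h in myoblasts, 1 to 3 for each of 3 h and 6 h minus 1 h in differentiated cells, and 1 to 2 for the stages at 3 h. Reversals of sign concerned genes with no call. Jag1 in myoblasts at 3 h was 0.0001 with DESeq2 and -0.0648 to 0.0684 without single libraries. In differentiated cells at 1 h Heyl was -0.0376 with the experiment as a covariate, -0.0325 with the block and -0.0549 to 0.0772 without single libraries, Notch1 was -0.0115 with the block, Jag1 -0.0102 with the block and -0.0253 to 0.386 without single libraries, and Hey1 -0.0662 to 0.0006. Without single libraries Notch2 ranged from -0.058 to 0.132 at 1 h and -0.0323 to 0.113 at 6 h in myoblasts, Hey1 from -0.0719 to 0.0728 at 6 h in differentiated cells, and Notch1 from -0.0175 to 0.0269 between the stages. Depth limited Heyl and Dll1 in myoblasts, at 22 to 122 and 36 to 118 counts a library.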
